A study of Sus scrofa with 4 samples.

Results

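CCND2, CCND3, CDK4 and CDKN1B, which are D-type cyclins, a kinase and a kinase inhibitor of the G1 phase of the cell cycle, were described in the thymus of IL2RG KO and WT pigs. They are 4 of the 3020 genes that could be named on the array, and all probes whose RefSeq accession belonged to them were taken, 5 of 43597 probes. CCND3 had 2 probes and each other gene had 1. The 4 genes were chosen by their KO minus WT differences on these same arrays, so these differences are given as a description and were not tested. Thymus RNA was hybridised to 4 Agilent porcine arrays, with 1 sample per array and a single dye, Cy3. The 2 KO arrays hold pigs labelled IL2RG+/-, in which 1 allele was cut by TALEN, a designed nuclease (mIL2RG+/Δ69-368), and the 2 WT arrays hold wildtype pigs. All 4 samples were labelled as thymus of Minnesota miniature swine. According to the paper, the KO pigs were cloned from edited cell colonies by nuclear transfer. It reports that most of them had no thymus, so that the KO samples come from the few pigs with a rudimentary organ. Age and sex of the pigs on the arrays are not given in the sources used here, and nothing states whether the 2 arrays of a genotype were separate litters or clones.

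D-type cyclins are the regulatory subunits of CDK4 and CDK6. The assembled kinase phosphorylates the retinoblastoma protein, which frees E2F transcription factors and lets a cell pass from G1 into S phase. CDKN1B, also known as p27, blocks the cyclin E kinase and also binds cyclin D complexes. In the thymus, signals of the pre-T-cell receptor drive the expansion of immature thymocytes, for which CCND3 is needed, and IL-7 acts through a receptor that contains the IL2RG protein. D-type cyclins differ in the cells that use them, and CCND2 is also known from B cells, macrophages and non-lymphoid cells.

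Signals are given on a log2 scale on which the 75th percentile of each array is 0. Each slide carried an array of both genotypes, slide 1 the first KO and the second WT replicate and slide 2 the others, so each gave its own KO minus WT difference. IL2RG, the targeted gene, read -3.15 and -3.29 on the KO arrays and -0.13 and 0.52 on the WT arrays. Its signal in KO was 9.38% of that in WT (log2 difference -3.41, SE 0.27, limma adjusted p = 0.00256). The normexp background correction gave -2.65, and a dimmer IL2RG probe gave -4.38, or 4.80% of WT. Of the probes, 74.5% and 73.5% were well above background on the KO arrays and 67.9% and 68.1% on the WT arrays. Median signals before scaling were 91.5 and 83.6 in KO and 63.6 and 68.3 in WT, and no spot was saturated. All 5 probes of the 4 genes were well above background on all 4 arrays.

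CCND3 was much lower in KO thymus at both of its probes. The brighter CCND3 probe gave processed signals of 1758 and 1648 in KO and of 7718 and 10935 in WT, which are 1.21 and 1.25 against 3.64 and 3.98 on the log2 scale. The KO mean was 1.23 ± 0.03 (SD, n = 2) and the WT mean was 3.81 ± 0.24 (SD, n = 2). The KO signal was 16.7% of WT, a log2 difference of -2.58 (SE 0.19). Both KO arrays lay below both WT arrays by 2.39 or more, whereas the WT arrays were 0.34 apart. The difference was -2.77 within slide 1 and -2.39 within slide 2.

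The dimmer CCND3 probe showed the same order with a larger difference. Its log2 signals were -1.73 and -1.81 in KO and 1.50 and 1.85 in WT. Means were -1.77 ± 0.06 (SD, n = 2) and 1.67 ± 0.25 (SD, n = 2), and the KO signal was 9.20% of WT (log2 difference -3.44, SE 0.19). Within slides the difference was -3.58 and -3.31. The 2 CCND3 probes carry the same transcript accession, and their KO minus WT differences were 0.86 apart on the log2 scale, or 1.82-fold. The probe letters were not used here, and whether either probe also binds RNA of a related cyclin was not tested.

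CCND2 went the other way. Its probe gave processed signals of 12459 and 13120 in KO and of 5057 and 4104 in WT, or log2 signals of 4.03 and 4.24 against 3.03 and 2.56. The KO mean was 4.13 ± 0.15 (SD, n = 2) and the WT mean was 2.79 ± 0.33 (SD, n = 2), which is 2.53-fold higher in KO (log2 difference 1.34, SE 0.23). The lower KO array lay 1.00 above the higher WT array, and the WT arrays were 0.46 apart. Within slide 1 the difference was 1.47 and within slide 2 it was 1.21. CCND2 remained higher in KO with any single array left out, with differences between 1.11 and 1.57.

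**Figure D1:**
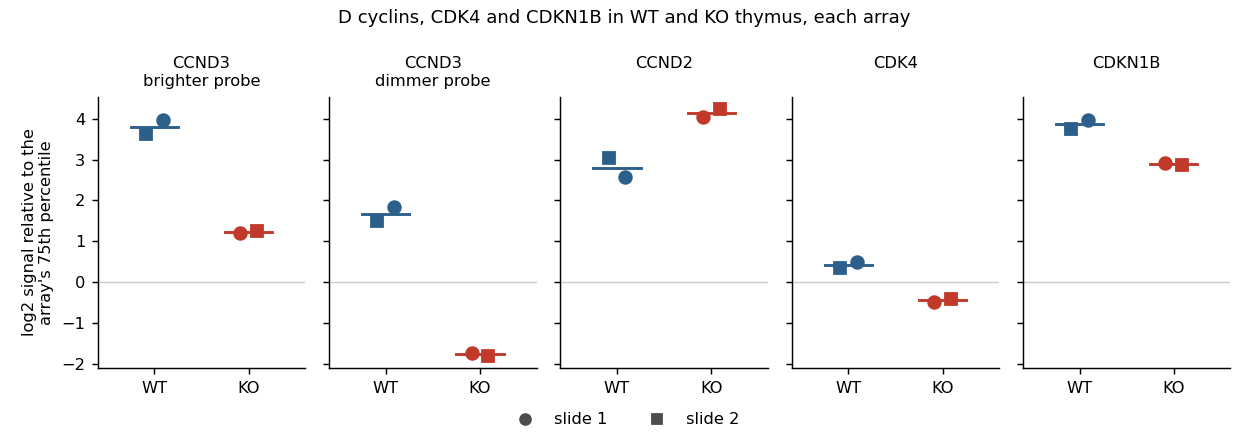
Log2 signal of each probe, relative to the array's 75th percentile (grey line at 0), on the 2 WT and 2 KO arrays. Each point is 1 array, its shape gives the slide and the bar is the mean of the genotype. Both CCND3 probes, CDK4 and CDKN1B lie lower on both KO arrays, and CCND2 lies higher.

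Both cyclins were then compared within each array, where any scaling of the array cancels. Brightness depends on the probe, so the quantity compared is the change between genotypes and not which cyclin had more RNA. The CCND3 signal relative to the CCND2 signal was 15.1-fold lower in KO with the brighter CCND3 probe (log2 change -3.92). This change was -4.24 on slide 1 and -3.60 on slide 2. With the dimmer CCND3 probe it was -4.78, or 27.5-fold, and the slides gave -5.04 and -4.52. CCND3 contributed -2.58 and CCND2 1.34 to the first of these values. Leaving out 1 array at a time gave values from -4.32 to -3.52. The pair was named for this contrast, so no test was made of it.

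**Figure D2:**
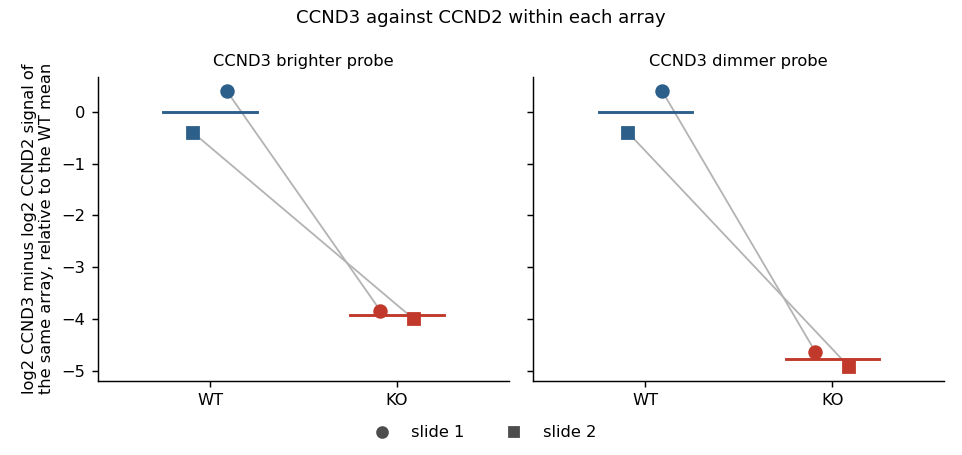
Log2 signal of CCND3 minus that of CCND2 on the same array, set to 0 at the WT mean, for the brighter and the dimmer CCND3 probe. Points are arrays, bars are genotype means and grey lines join the WT and KO array of 1 slide. The change between means is -3.92 on the left and -4.78 on the right, and both slides show it.

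CDK4, the kinase that D-type cyclins activate, was lower in KO by less than 2-fold. Its log2 signals were -0.49 and -0.41 in KO and 0.35 and 0.48 in WT. Means were -0.45 ± 0.05 (SD, n = 2) and 0.42 ± 0.10 (SD, n = 2). The KO signal was 54.9% of WT (log2 difference -0.87, SE 0.16), with -0.97 within slide 1 and -0.76 within slide 2. The genotypes did not overlap.

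CDKN1B, the inhibitor, differed by about as much. Its log2 signals were 2.92 and 2.88 on the KO arrays and 3.76 and 3.97 on the WT arrays. Means were 2.90 ± 0.03 (SD, n = 2) and 3.86 ± 0.15 (SD, n = 2), and the KO signal was 51.2% of WT (log2 difference -0.96, SE 0.16). The slides gave -1.05 and -0.88, again with no overlap. Relative to CDKN1B on the same array, CDK4 changed by 0.10 between genotypes, with 0.08 on slide 1 and 0.12 on slide 2. CCND3 changed by -1.72 relative to CDK4 and by -1.62 relative to CDKN1B. CCND2 moved away from both, by -2.21 for CDK4 minus CCND2 and by -2.30 for CDKN1B minus CCND2. With scaling to the array's median instead, the differences of CDK4 and CDKN1B came to -1.12 and -1.22, which is past 2-fold.

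**Figure D3:**
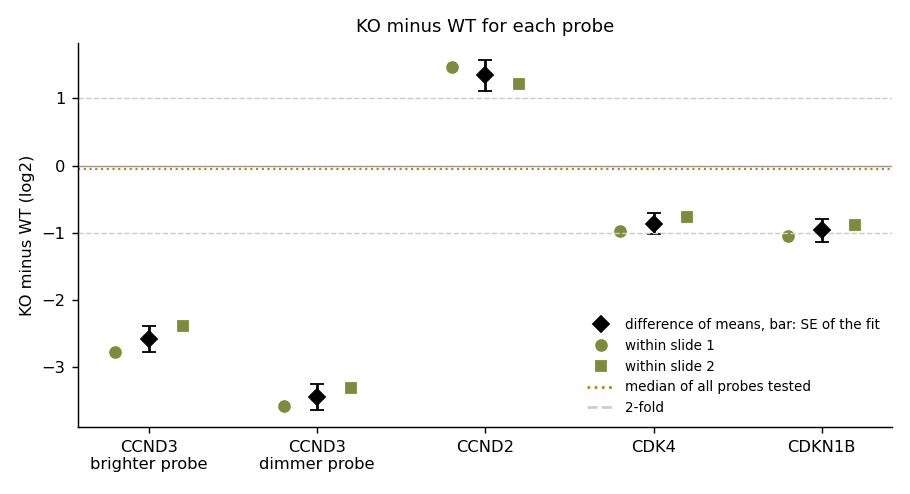
KO minus WT difference of the log2 signal for each probe. Black diamonds are differences of means with the SE of the fit across all probes, green points are the differences within slide 1 and slide 2, dashed lines mark 2-fold and the dotted line is the median of all probes tested. Every probe has the same sign on both slides, and CDK4 and CDKN1B lie near the 2-fold line.

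Differences the size of those of CCND2, CDK4 and CDKN1B were common on these arrays, and differences as low as those of CCND3 were less so. Of the 31959 probes tested, 13.8% were at least 2-fold lower in KO and 23.0% at least 2-fold higher, and the median log2 difference was -0.06. In 41.0% of them both KO arrays lay below both WT arrays, and in 37.7% both lay above. Of the 5 probes described here, 2 were at least 2-fold lower, 1 was at least 2-fold higher and 2 were under 2-fold, and in all of them the genotypes were apart (4 lower, 1 higher). Because the genes were chosen by this contrast, these counts support nothing further. By position, 2.41% of the tested probes had a difference as low as that of the brighter CCND3 probe or lower, and 1.18% as low as that of the dimmer one. The corresponding share was 14.6% for CDKN1B and 17.1% for CDK4, and 18.7% of probes had a difference as high as that of CCND2 or higher. Tissue RNA gives 1 value for all cells, so fewer cells of a type and less RNA per cell cannot be told apart.

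Among the other genes tested in the G1 lists, 6 fell and the rest did not meet both criteria given below. The G1 lists held 61 genes, of which 12 had a named probe and 11 were tested. A gene was called at a limma adjusted p under 0.05 with at least 2-fold, which held for 12.6% of the 2702 named genes tested as lower in KO and for 25.2% as higher. In the G1 lists 6 of 11 genes fell, 0 rose and 5 were not called, with a median log2 difference of -1.06 beside -0.002 over all named genes. Most of these genes, 8 of 11, were upstream regulators of D-type cyclins and CDKN1B, and 4 of the 8 fell. They include PTCRA, which is also in the thymocyte list below. Of the inhibitors of cyclin-dependent kinases 1 of 1 tested fell, and of the turnover genes 1 of 2. No named probe was found for CCND1, CDK6, the retinoblastoma and E2F families or the cyclin E step, and genes of S phase are not analysed here. The pathway is therefore described through a small share of its genes.

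Among inhibitors and their turnover, CDKN3, a phosphatase that acts on cyclin-dependent kinases, fell by 2.59 on the log2 scale (SE 0.18, limma adjusted p = 0.00228). CDKN2B, an inhibitor of CDK4 and CDK6, was too dim to be tested. CKS1B, which helps the SKP2 ligase mark CDKN1B for degradation, fell by 1.34 (SE 0.19, limma adjusted p = 0.00769). Without KO replicate 1 CKS1B lost its call, at -1.19 (limma adjusted p = 0.0677). GSK3B, a kinase that marks D-type cyclins for export and degradation, had a difference of -0.94 (limma adjusted p = 0.0104), under 2-fold, and passed 2-fold when arrays were scaled to the median (-1.19, limma adjusted p = 0.00574).

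Upstream of D-type cyclins, PTCRA and LEF1 fell most. PTCRA, the alpha chain of the pre-T-cell receptor, read -4.26 and -5.70 on the KO arrays and 2.58 and 2.94 on the WT arrays (log2 difference -7.74, SE 0.52, limma adjusted p = 0.00217). Its difference was -8.46 without KO replicate 1, -7.02 without KO replicate 2 and -5.88 with the normexp background correction. LEF1, a transcription factor of the Wnt pathway, fell by 3.62 (SE 0.19, limma adjusted p = 0.00205). IL7R, which pairs with the IL2RG protein as the IL-7 receptor, fell by 1.56 (SE 0.15, limma adjusted p = 0.00372). STAT5B, which carries the signal of this receptor, fell by 1.06 (SE 0.20, limma adjusted p = 0.0164). The STAT5B call was lost when KO replicate 1, KO replicate 2 or WT replicate 2 was left out, and its difference was under 2-fold with the deposited values (-0.97), quantile normalization (-0.97) and the normexp background correction (-0.99). A dimmer STAT5B probe was at -0.37 and not called. The remaining genes of this list were not called. They were STAT5A at -0.07, AKT1 at -0.10, FOXO3, a factor that induces CDKN1B, at 0.03, and MYC, which drives cell growth and entry into the cycle, at -0.34. The number of these G1 genes called lay between 4 and 7 over the alternatives, being 4 without KO replicate 1.

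Genes that act later in the cycle fell together. All 9 tested genes of the 17 in the mitosis list fell, with log2 differences from -3.26 to -1.73 and a median of -2.52. CDC20, an activator of the anaphase-promoting complex, was at -3.26, and AURKB, a kinase of the chromosomal passenger complex, was at -1.73. The 3 AURKB probes ranged from -2.77 to -1.73. The cyclin B genes CCNB1 (-2.48) and CCNB2 (-2.68) and their kinase CDK1 (-2.52) had differences near that of the brighter CCND3 probe. AURKA (-1.84), TOP2A (-2.81), PBK (-3.09) and BIRC5 (-2.19) completed the list. All 9 were called with any single array left out.

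Of 7 other cyclin and CDK genes with a named probe, picked by symbol after it was seen which probes had names, 4 fell. These were CCNB1, CCNB2, CDK1 and CCNC, a cyclin of the Mediator complex (-1.12, SE 0.18, limma adjusted p = 0.0111). CDK5, a kinase best known from neurons, was at -0.72, CCNG1 at -0.28 and CDK10 at -0.26, none of them called. Of the genes that fell, CCNB1, CCNB2 and CDK1 are also in the mitosis list, and 12.6% of all named genes tested were called lower. CCND2 had a positive difference and these 7 genes had negative ones. CCND2 was chosen by its difference, so this contrast supports nothing further.

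**Figure D4:**
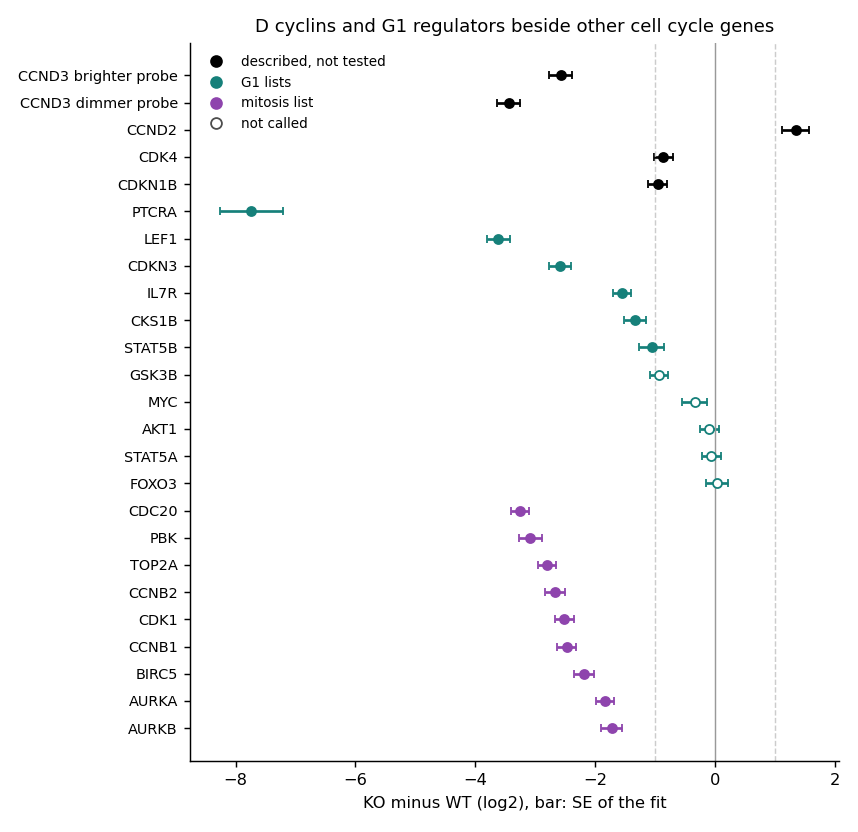
KO minus WT difference of the log2 signal with the SE of the fit, for the probes of the 4 genes (black), the tested genes of the G1 lists (green) and the mitosis list (purple). Open green or purple points were not called, black points are all filled but were not tested, and dashed lines mark 2-fold. CCND2 is the only point beyond 2-fold higher, and the mitosis genes lie between -3.26 and -1.73.

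Markers of the cell types of a thymus also differed between the genotypes. All 13 tested thymocyte markers of 18 fell, with a median of -2.60. Their summed signal, in multiples of the array's 75th percentile, came to 37.5 and 36.6 on the KO arrays and to 229 and 310 on the WT arrays. RAG2 (-7.76, SE 0.68), PTCRA (-7.74, SE 0.52) and RAG1 (-7.68, SE 0.56) had the largest falls by brightest probe. They lay closer together than their SEs, so their order is not resolved. RAG1 and RAG2 together cut the antigen receptor genes, and PTCRA is shared with the G1 lists. The 4 RAG1 probes ranged from -8.27 to -4.73, and RAG2 was well above background on 1 of 2 KO arrays. CD3E (-2.40) and CD3G (-2.48) of the T-cell receptor complex and the kinase LCK (-2.56) fell but stayed well above background in KO. A dimmer CD3G probe was at -1.74. Beside these 13 called markers, 12.6% of all named genes tested were called lower. Both CCND3 probes were lower on both KO arrays than on both WT arrays, as were 41.0% of all tested probes. CCND3 was chosen by this contrast, so a link between the markers and CCND3 was not tested.

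In the same arrays all 9 tested macrophage markers of 14 rose, with a median of 2.34 and summed signals of 284 and 352 in KO against 71.6 and 55.6 in WT. Over all named genes tested, 25.2% were called higher and 12.6% lower. Of endothelial markers 4 of 5 rose (median 1.79, sums of 19.2 and 21.2 against 7.15 and 4.65). Of fibroblast markers 3 of 4 rose (median 1.59, sums of 115 and 175 against 63.2 and 27.3). On every array most of the fibroblast sum was DCN, which had a difference of 1.79. Of thymic epithelial markers KRT8 alone of 4 rose, which is near the share over all named genes (median 0.59, sums of 259 and 241 against 96.5 and 68.1). Most of that sum was KRT8, and the other 3 genes summed to 63.6 and 55.0 in KO against 46.2 and 41.0 in WT. Of adipocyte markers 3 of 6 rose (median 2.91, sums of 40.1 and 117 against 17.6 and 9.61), among them PLIN1, which was well above background on 1 of 2 WT arrays. Most of the adipocyte sum was FABP4 on every array, which had a difference of 2.84. Both tested B cell markers of 7 fell, MS4A1 (-3.45), a surface protein of B cells, and CD79A (-3.47) of the B cell receptor, with sums of 0.105 and 0.0883 against 1.13 and 1.00. MS4A1 was well above background on 1 of 2 KO arrays. In all, 35 of 43 marker genes were called, 15 lower and 20 higher, and without KO replicate 2 the numbers were 25, 14 and 11. RAG2, MS4A1 and PLIN1 entered through the genotype in which they were bright, and with only probes well above background on all 4 arrays 32 of 40 were called, 13 lower and 19 higher. The part of this shift in cell markers in the differences of CCND2, CCND3, CDK4 and CDKN1B was not tested.

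**Figure D5:**
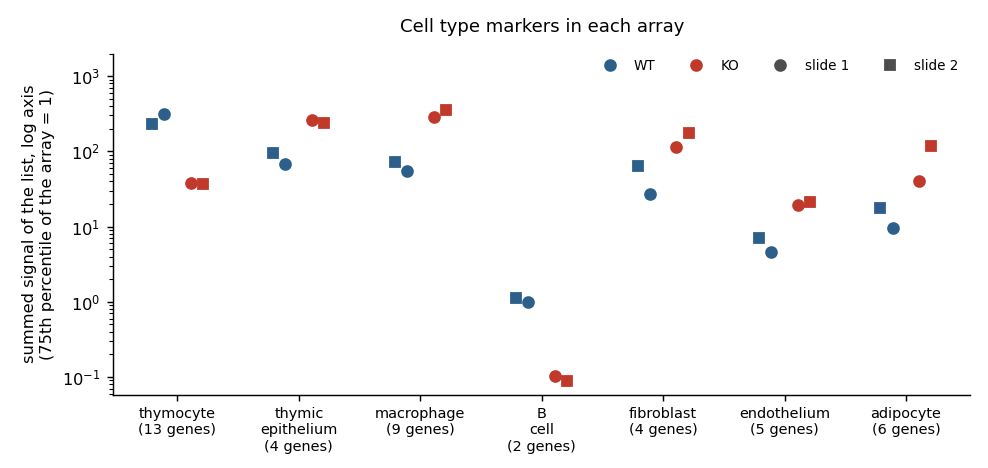
Summed signal of the tested genes of each cell type list on each array, in multiples of the array's 75th percentile, on a log axis. Points are arrays, colours give the genotype and shapes the slide. Thymocyte and B cell lists are lower on both KO arrays and the other 5 lists are higher, thymic epithelium mostly through KRT8. Most of the fibroblast sum is DCN and most of the adipocyte sum is FABP4.

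The named genes whose pattern over the 4 arrays was most like that of each D-type cyclin were found by the root mean square distance of their log2 signals, each centred on its own mean, among 2510 genes. For CCND2 these were ARSA (distance 0.0292), a lysosomal sulfatase, PSMB9 (0.0421), a subunit of the immunoproteasome, CD86 (0.0433), a costimulatory ligand of antigen-presenting cells, TLR8 (0.0449), an endosomal RNA sensor, and LMNA (0.0522), a nuclear lamin. Their KO minus WT differences ran from 1.27 to 1.38. For CCND3, by its brighter probe, they were CDKN3 (0.0622), CD3G (0.0687), FUT8 (0.0788), a fucosyltransferase, CCNB2 (0.0857) and CDK1 (0.0860). Their differences ran from -2.68 to -2.44. These distances rest on 4 arrays and largely reflect the KO minus WT difference by which CCND2 and CCND3 were chosen. They are a description, and whether these genes share regulation or a cell of origin with the cyclins was not tested.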

How the data were processed

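Thymus RNA of KO and WT pigs was measured on 4 one-colour Agilent arrays, 2 per genotype, grouped by the sample labels. The paper names 2 KO pigs for its arrays and does not state whether the 2 WT arrays hold separate animals. The authors deposited intensity values as scanner output of Agilent Feature Extraction 11.0.1.1, as named in the submitters' processing notes, with background subtracted and no normalization between arrays. A table of log2 values, likewise deposited by the authors, covers 27970 of the probes used here, which correlated with the log2 scanner signal at 0.9998 or more on each array. The paper's methods mention Cy3 and Cy5, whereas labels and files hold 1 channel.

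Here, control spots and outlier spots were left out, which removed 6 of 43603 probes. Log2 processed signals of the spots of a probe were averaged and the array's 75th percentile was subtracted. The 31959 probes well above background throughout 1 genotype or the other were fitted with limma 3.58.1 in R 4.3.3 (lmFit, eBayes), with Benjamini-Hochberg adjustment over all of them, and were called at an adjusted p under 0.05 and at least 2-fold. Python 3.11.15, pandas 2.3.3 and matplotlib 3.10.9 made tables and plots. The fit was tested on simulated data. Probes were named by accession through the RefSeq table of Sscrofa11.1, which named 6684 probes, and a gene was represented by its brightest probe. Array number limits the precision, since the smallest exact permutation p of 2 arrays against 2 is 0.333. The limma p-values rest only on the spread between these samples, with each probe's spread moderated by that of all probes tested. Genes named in the text are the 4 genes, IL2RG, genes of the lists that were called or were needed to account for a list, and the 5 closest in pattern to each D-type cyclin. The 4 genes and all lists were chosen with earlier results of these data known. The results of a few genes are left out, and the lists were computed without them. Alternatives were the deposited log2 values, normexp (offset 50), quantile and median scaling, other filters, an intensity trend, the mean of a gene's probes, slide or replicate number as a block, and each array left out.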

Additional observations from a re-analysis of the deposited data

How the results depend on the processing

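CCND2, both CCND3 probes, CDK4 and CDKN1B kept the sign of their difference under every alternative run. Scaling to the median lowered the median of all probes by 0.26 (log2 shift -0.26) and gave 1.08 for CCND2, -2.84 and -3.70 for the brighter and dimmer CCND3 probe, -1.12 for CDK4 and -1.22 for CDKN1B. CDKN1B was at -0.80 with the deposited values and with quantile normalization, and the dimmer CCND3 probe at -3.05 with normexp. With the mean of a gene's probes, the CCND3 change relative to CCND2 was -4.35. With single arrays left out, CDK4 lay between -0.93 and -0.80 and CDKN1B between -1.07 and -0.86, past 2-fold without WT replicate 1.

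Of all probes 10882 were called, 4170 lower and 6712 higher (61.7% higher), against 6334 lower and 5810 higher (47.8% higher) after scaling to the median. Normexp gave 6622 calls, and single arrays left out gave from 6073 (without KO replicate 2) to 12922 (without WT replicate 1), with 6300 without KO replicate 1. FOXO3, never called, turned to -0.082 with the deposited values, -0.079 with quantile normalization and -0.23 with the median, and ranged from -0.085 to 0.136 with single arrays left out. STAT5A, never called, ranged from -0.158 to 0.024 with single arrays left out. The cause of these shifts was not tested. A replicate block gave 10668 calls and the slide as a block 11124. The correlation of deviations from the genotype mean was -0.29 for the same replicate number and 0.29 for the same slide. With 2 arrays per genotype these values are equal and opposite by construction. They cannot show whether the replicate numbers pair the samples. The replicate block changed no call among the G1 and mitosis genes. Probes near background, such as those of PTCRA and RAG2 in KO, have the least certain differences.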
